A study of Mus musculus with 12 samples.

Results

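The comparison asked what the TLR2 ligand Pam2CSK4 changed in resting B (RB) cells that were also stimulated through CD40. Its members were 4 of the 12 arrays of the series, 2 labelled anti-CD40 with Pam2CSK4 and 2 labelled anti-CD40 alone, and they were chosen by their labels. All groups were RB cells from spleens of BALB/c mice 6 weeks old, isolated by negative selection with anti-CD43 and collected after 4 h. The other 8 arrays held 2 each of unstimulated cells, Pam2CSK4, anti-CD86, and anti-CD86 with Pam2CSK4. They lent their spread to the test and gave 2 further settings in which the effect of Pam2CSK4 was measured. The dose of anti-CD40 is not given in the sources used here. The p-values measure the spread between arrays, which may be technical.

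CD40 is a receptor of the TNF receptor family on B cells and is engaged by its ligand on activated T cells. It recruits TRAF adaptors, activates the canonical and the alternative NF-kB pathway, and promotes survival, growth and class switching. Pam2CSK4 is a synthetic lipopeptide recognised by TLR2 paired with TLR6, which signals through MYD88 and IRAK kinases to canonical NF-kB and MAP kinases. Both routes therefore meet at NF-kB.

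A level is the log2 processed signal of a probe minus the log2 75th percentile of its array. Differences were estimated with limma with a term for the slide, and a probe was called at a Benjamini-Hochberg adjusted p under 0.05. Both arrays of anti-CD40 with Pam2CSK4 lay on slide 1, whereas anti-CD40 alone had 1 array on each slide. Anti-CD40 replicate 2 stood apart, with 60.6% of its spots well above background and a median intensity of 51.3, against 46.6% to 55.9% and 17.3 to 33.5 on the other 11 arrays. The spread between paired arrays (SD of log2 levels estimated from the median absolute difference over 6647 bright probes) was 0.0515 for anti-CD40 with Pam2CSK4 and 0.0413 for unstimulated cells, whose arrays shared a slide, and 0.0956 to 0.128 for the other pairs. The B cell genes Cd79a, Cd79b, Ms4a1, Cd22 and Pax5 were well above background on all 12 arrays. The labels describe the mice as female, but Xist was well above background on 0 of 12 arrays, while the Y-linked genes Ddx3y (2.56 to 2.90) and Eif2s3y (2.73 to 3.26) were so on all 12.

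Pam2CSK4 added to anti-CD40 changed 4727 of 31599 probes (15.0%), with 2731 higher and 1996 lower. Among the 654 that changed at least 2-fold, 222 were higher and 432 lower. Counting each gene by its brightest probe, 1497 of 16783 genes were higher (8.92%) and 1084 lower (6.46%), and the median log2 fold change over all genes was 0.03. The balance turned in some alternatives. Without the slide term 916 were called, 411 higher and 505 lower. On slide 1 alone 240 were higher and 351 lower of 591. When each pair of arrays on 1 slide was averaged to 1, an alternative chosen after the data were seen, 241 were higher and 402 lower of 643. Leaving out anti-CD40 replicate 2 gave 1639 higher and 1630 lower. Of the 4727 probes 4727 had the same sign on slide 1 alone and 4688 without the slide term. These fits use the same arrays, so a kept sign follows largely from the call. Of the 4727, 485 were also called on slide 1 alone and 916 without the slide term. Of the 16783 genes, 788 were higher and 891 lower without anti-CD40 replicate 2. Without the slide term 165 were higher and 269 lower, and with the same-slide pairs averaged 98 and 221. The list counts that follow are to be set beside these numbers and the 8.92% and 6.46% above. Scaling to the array median shifted every log2 fold change up by 0.19. Of the 133 named genes that were called, 61 were also called with this scaling. Falls that lost the call included those of Il21r, Slc7a5, Cyld, Bst2 and Bax, and rises those of Traf1, Tlr2 and Il2ra. In whole samples, fewer cells of a type and less RNA per cell cannot be told apart.

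Among cytokines and chemokines 13 of 29 tested genes rose and 1 fell, with a median log2 fold change of 0.46. Il12b, which encodes the p40 subunit shared by IL-12 and IL-23, had levels of -0.72 and -0.81 with anti-CD40 and 1.39 and 1.55 with anti-CD40 and Pam2CSK4. It rose 4.45-fold (log2 2.16, SE 0.08, adjusted p = 2.65e-05). Tnf was at 1.22 and 0.80 without Pam2CSK4 and at 2.42 and 2.34 with it (1.19, SE 0.07, adjusted p = 0.000251). Il6, a cytokine that supports plasma cells, was at -0.26 and -0.69 and rose to 0.58 and 0.44 (0.89, SE 0.13, adjusted p = 0.0081). For each of these 3 genes both arrays with Pam2CSK4 lay above both without it. The share of all genes whose groups did not overlap was not counted, so this adds nothing to the calls.

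Il10, an anti-inflammatory cytokine that B cells can make, was at 0.61 and 0.24 and rose to 1.16 and 1.14 (0.56, SE 0.06, adjusted p = 0.00302). Cxcl1, which attracts neutrophils, was at -2.15 and -1.35 and rose to -0.21 and -0.41 (1.57, SE 0.22, adjusted p = 0.00704). Il1b, named after its values were seen, was at 4.00 and 3.80 and then at 4.75 and 4.84 (0.89, SE 0.09, adjusted p = 0.00271). In all 3 the groups did not overlap, a trait whose share over all genes was not counted. Ccl17, a ligand of CCR4, was well above background only on the arrays with both stimuli among these 4 and was at least 2.26-fold higher there (adjusted p = 0.0117). An "at least" value sets the mean of the brighter group against the higher, per array, of the lowest signal well above background and the dim probe's own signal. The member that fell was Ltb, which encodes lymphotoxin beta (-0.25, adjusted p = 0.0459). The list had 11 higher members without anti-CD40 replicate 2, 8 without the slide term and 4 with the same-slide pairs averaged.

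Of the genes outside the lists, Saa3, a serum amyloid A gene, was at -4.04 and -4.10 with anti-CD40, not well above background, and at -1.56 and -1.30 with Pam2CSK4, at least 4.62-fold higher (adjusted p = 0.000413). Saa2, whose sequence is close to that of other Saa genes, went from -3.67 and -4.09 to -0.71 and -0.61, at least 7.89-fold higher (adjusted p = 0.022), and lay at -5.40 to -3.40 on the 8 arrays without anti-CD40. It was called in 9 of 18 alternatives. Ptgs2, which encodes COX-2 and was named after its values were seen, went from -3.70 and -3.41 to -1.89 and -1.95 (1.67, SE 0.24, adjusted p = 0.00779). It was well above background on 1 of the 2 anti-CD40 arrays, and its dimmer probe gave 1.69.

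**Figure D1:**
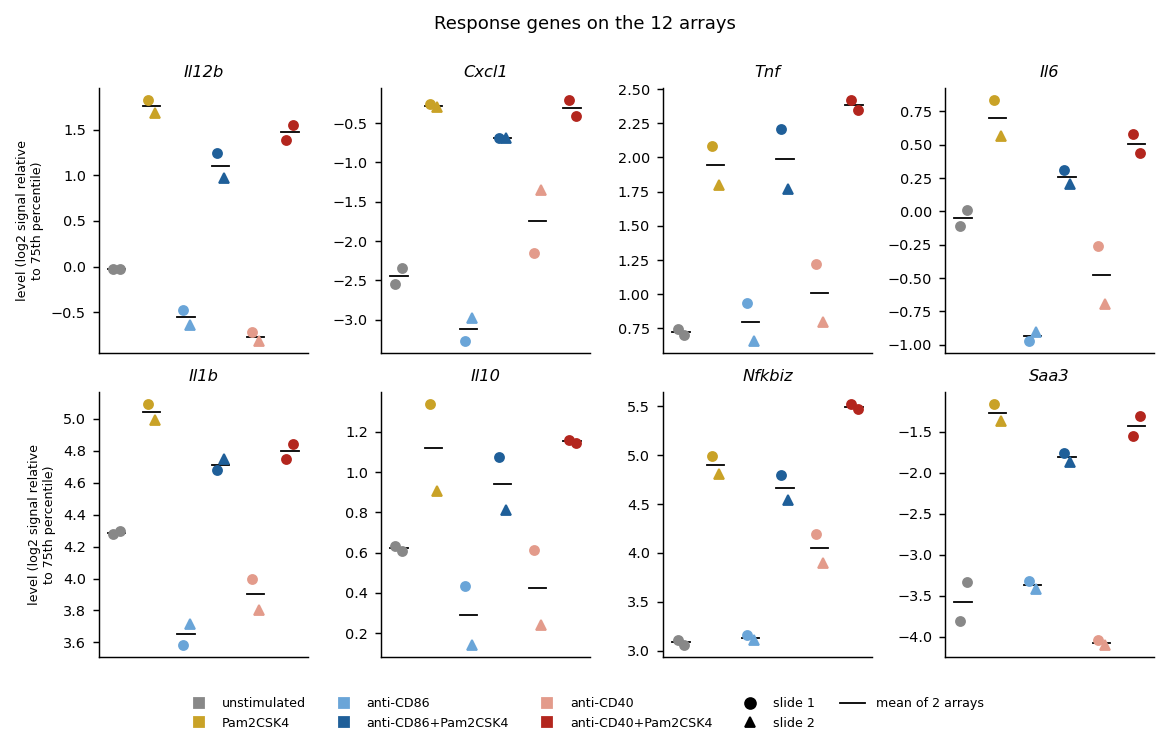
Level of 8 genes (log2 signal over the array's 75th percentile, y axis) on the 12 arrays by condition; circles are slide 1, triangles slide 2, and lines the mean of 2 arrays. In every panel both anti-CD40+Pam2CSK4 arrays lie above both anti-CD40 arrays, as for Il12b at 1.39 and 1.55 against -0.72 and -0.81.

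Of 23 tested genes of the TLR2 receptor and its adaptors 5 rose and 0 fell, with a median of 0.04. Tlr2 itself was at 2.19 and 1.83 with anti-CD40 and at 2.70 and 2.71 with Pam2CSK4 (0.56, SE 0.07, adjusted p = 0.00384). Cd14, a co-receptor that hands lipopeptides to TLR2, was at 2.57 and 2.05 and rose to 3.04 and 3.04 (0.55, SE 0.08, adjusted p = 0.00736). Irak4, a kinase recruited by MYD88, was at -2.95 and -2.88 and then at -2.39 and -2.05 (0.63, adjusted p = 0.0456), but its dimmer probe gave -0.33. The partner receptors Tlr1 (0.01, 95% interval -0.15 to 0.18) and Tlr6 (-0.14, -0.60 to 0.32) and the adaptor Myd88 (0.22, 0.05 to 0.40) did not pass. The list had 0 calls without the slide term and 3 without anti-CD40 replicate 2.

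Of 14 genes of the CD40 receptor and its adaptors 4 rose and 2 fell, with a median of 0.23. Traf1, an adaptor, was at 4.28 and 4.04 and rose to 4.69 and 4.81 (0.50, SE 0.06, adjusted p = 0.00481). Traf3, which restrains the alternative NF-kB pathway, was at 2.96 and 2.64 and rose to 3.41 and 3.50 (0.50, SE 0.07, adjusted p = 0.00687). Cyld, a deubiquitinase that restrains NF-kB, fell by 0.43 (SE 0.09, adjusted p = 0.0224), but its dimmer probes gave -0.01 and -0.03. Cd40 had a difference of 0.26 (0.09 to 0.43, adjusted p = 0.0551). Without the slide term 0 members of this list were called, and without anti-CD40 replicate 2 the calls were 2 higher and 2 lower.

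Among NF-kB subunits and inhibitors 7 of 20 rose and 0 fell, with a median of 0.19. Nfkbiz, a nuclear IkB protein needed for part of the TLR response, had the largest log2 fold change of the 7. It was at 4.2 and 3.90 with anti-CD40 and at 5.52 and 5.47 with Pam2CSK4 (1.35, SE 0.07, adjusted p = 0.000206). The inhibitors Nfkbib and Nfkbid rose by 0.45 (adjusted p = 0.00756) and 0.43 (adjusted p = 0.0107), and Tnip1, a partner of A20, by 0.41 (adjusted p = 0.0107). The inhibitor Nfkbia (0.24, -0.04 to 0.51) and the subunits Nfkb1 (0.23, 0.05 to 0.40), Nfkb2 (0.16, 0.03 to 0.29) and Rel (-0.16, -0.36 to 0.05) did not pass. Spots of Nfkbia and Nfkb1 were saturated on at least 1 of the 4 arrays. The count was 5 without anti-CD40 replicate 2 and 1 without the slide term.

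The kB consensus, the sequence that NF-kB dimers bind, was searched on both strands in the 250 bases before each start in the RefSeq promoters of GRCm38.p6. It was in 7.25% of 32851 promoters and, counting each gene once, in 8.23% of 27025 genes. Of the 13 cytokine genes that rose 10 had a promoter in the table and 5 of these held the consensus, as did 5 of 12 among the other tested cytokine genes. In the NF-kB list 4 of the 6 higher members with a promoter held it, and 3 of 9 among the others. The sequences below belong to cytokine, receptor and surface genes that rose, and capitals mark the consensus, with matches that overlap on both strands merged. Cxcl1 (chr5:90890995-90891244, plus strand), Cxcl10 (chr5:92348890-92349139, minus strand), Il6 (chr5:30012864-30013113, plus strand), Tlr2 (chr3:83841609-83841858, minus strand) and Il2ra (chr2:11642542-11642791, plus strand) held it. Il12b (chr11:44399813-44400062, plus strand), with the highest log2 fold change of the cytokine list, and Tnf (chr17:35202008-35202257, minus strand) had no match in this window. Cxcl10, an interferon-induced chemokine gene named for its promoter after its values were seen, had mean levels of -0.33 with anti-CD40 and 0.53 with both stimuli (log2 fold change 0.81, SE 0.16, adjusted p = 0.0224).
Cxcl1: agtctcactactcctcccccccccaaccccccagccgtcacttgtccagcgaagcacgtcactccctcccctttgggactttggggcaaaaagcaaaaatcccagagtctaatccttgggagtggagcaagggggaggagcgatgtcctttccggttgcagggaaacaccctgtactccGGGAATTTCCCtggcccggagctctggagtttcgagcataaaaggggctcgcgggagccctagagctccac
Cxcl10: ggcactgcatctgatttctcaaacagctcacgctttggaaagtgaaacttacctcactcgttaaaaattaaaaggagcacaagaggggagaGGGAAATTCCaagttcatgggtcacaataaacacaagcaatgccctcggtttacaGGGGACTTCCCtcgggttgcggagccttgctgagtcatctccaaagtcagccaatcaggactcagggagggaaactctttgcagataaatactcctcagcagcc
Il6: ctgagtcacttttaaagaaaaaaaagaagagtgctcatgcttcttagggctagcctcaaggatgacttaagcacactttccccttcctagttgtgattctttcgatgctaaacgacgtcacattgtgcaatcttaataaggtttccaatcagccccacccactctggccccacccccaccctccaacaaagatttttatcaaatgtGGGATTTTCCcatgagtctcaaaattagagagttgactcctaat
Tlr2: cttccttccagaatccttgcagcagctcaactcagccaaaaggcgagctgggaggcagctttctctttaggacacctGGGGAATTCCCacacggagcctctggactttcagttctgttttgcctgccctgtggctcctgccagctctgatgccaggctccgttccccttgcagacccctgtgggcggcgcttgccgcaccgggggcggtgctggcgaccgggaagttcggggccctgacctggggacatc
Il2ra: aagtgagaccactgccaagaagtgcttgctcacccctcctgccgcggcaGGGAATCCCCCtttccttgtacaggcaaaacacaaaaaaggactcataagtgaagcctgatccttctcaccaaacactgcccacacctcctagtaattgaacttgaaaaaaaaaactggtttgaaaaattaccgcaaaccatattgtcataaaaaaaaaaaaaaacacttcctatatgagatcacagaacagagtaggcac
Il12b: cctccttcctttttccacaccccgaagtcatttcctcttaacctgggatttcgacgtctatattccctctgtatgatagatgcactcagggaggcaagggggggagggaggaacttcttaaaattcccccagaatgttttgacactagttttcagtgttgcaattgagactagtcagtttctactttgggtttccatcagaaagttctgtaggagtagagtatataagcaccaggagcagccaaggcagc
Tnf: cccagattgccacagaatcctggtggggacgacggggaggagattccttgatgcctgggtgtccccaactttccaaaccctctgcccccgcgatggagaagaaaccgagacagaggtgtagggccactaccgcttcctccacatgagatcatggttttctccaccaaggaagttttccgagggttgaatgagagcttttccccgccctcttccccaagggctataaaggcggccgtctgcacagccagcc

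Of 26 immediate early genes 6 rose and 0 fell, with a median of 0.25. Myc, which drives growth of activated B cells, was at 6.78 and 6.39 with anti-CD40 and at 7.28 and 7.27 with Pam2CSK4 (0.54, SE 0.07, adjusted p = 0.00592), and its dimmer probes gave 0.55 and 0.11. Dusp1, a phosphatase that switches off MAP kinases, rose by 0.56 (adjusted p = 0.0063). The transcription factor genes Fosb and Nr4a2 rose by 0.47 (adjusted p = 0.00818) and 0.42 (adjusted p = 0.0097). The list had 0 calls without the slide term.

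In the survival list 4 of 11 genes rose and 0 fell, with a median of 0.12. Bcl2l1, which encodes BCL-xL, was at 3.54 and 3.34 and rose to 4.39 and 4.22 (0.82, SE 0.10, adjusted p = 0.00542). Its dimmer probes gave 0.71 and 0.95 and did not pass. Bcl2a1b and Bcl2a1a, near-identical genes for the survival protein A1 whose signals may be shared, rose by 0.44 (adjusted p = 0.0104) and 0.38 (adjusted p = 0.0269, saturated on at least 1 array). A dimmer probe of Bcl2a1b gave 0.18 and did not pass (adjusted p = 0.115). Cflar, an inhibitor of death receptor signaling, rose by 0.39 (adjusted p = 0.018). Dimmer probes of Cflar gave 0.43, which passed, and -0.06 and 0.58, which did not. Pim2 (0.17, 0.02 to 0.31) did not pass, whereas its dimmest tested probe was called lower (-0.40, adjusted p = 0.014) and another gave 0.12. The count was 2 without anti-CD40 replicate 2 and 1 without the slide term. Of 8 pro-apoptotic genes 0 rose and 1, Bax, fell (-0.40, adjusted p = 0.0212), a call lost without anti-CD40 replicate 2.

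Of 26 activation surface molecules 6 rose and 2 fell, with a median of 0.13. Il2ra, which encodes CD25, was at 1.89 and 1.72 and rose to 2.48 and 2.29 (0.61, SE 0.11, adjusted p = 0.014). Its dimmer probe gave 0.32 and did not pass (adjusted p = 0.58). Il21r, the receptor of a T cell cytokine, was at 2.89 and 2.48 and fell to 2.42 and 2.38 (-0.44, SE 0.06, adjusted p = 0.00741). This fall was called in 10 of 19 alternatives, and scaling to the array median gave -0.25 (adjusted p = 0.667). The death receptor gene Fas rose by 0.41 (adjusted p = 0.0258) and Gpr183, a guidance receptor of B cells, by 0.41 (adjusted p = 0.00805). The costimulatory genes Cd80 (-0.05, -0.60 to 0.49) and Cd86 (-0.13, -0.30 to 0.04) and the early marker Cd69 (0.02, -0.15 to 0.19) did not pass. A dimmer probe of Cd86 gave 0.25 (adjusted p = 0.0513). The list had 3 higher members without anti-CD40 replicate 2, 1 higher and 0 lower without the slide term, and 0 calls with the same-slide pairs averaged.

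Of 25 genes of resting cells and trafficking 5 rose and 2 fell. Pik3ip1, an inhibitor of PI3 kinase, was at 4.74 and 4.42 and fell to 3.68 and 3.72 (-0.98, SE 0.07, adjusted p = 0.000433). S1pr4, a receptor for sphingosine 1-phosphate, fell by 0.57 (adjusted p = 0.0156), and the integrin gene Itga4 rose by 0.65 (adjusted p = 0.00637). Dimmer probes of Itga4 gave 0.19 and 0.51 and did not pass. Klf2 (0.26, 0.04 to 0.48), a transcription factor gene of quiescence, did not pass, but its spot was saturated on at least 1 array, and its dimmer probe gave -0.15. The list had 2 higher members without anti-CD40 replicate 2, and 0 higher and 1 lower without the slide term.

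Of 41 ribosome biogenesis genes 11 rose and 2 fell, with a median of 0.19. Rrp1b was at 0.74 and 0.24 and rose to 1.57 and 1.58 (0.91, SE 0.10, adjusted p = 0.00352), although its dimmer probes gave 0.25 and -0.48. The list had 7 higher members without anti-CD40 replicate 2 and 1 without the slide term. In the G1 list 4 of 16 rose and 0 fell. Cdkn1a, which encodes the cell cycle inhibitor p21, was at 0.55 and -0.01 and rose to 1.57 and 1.63 (1.13, SE 0.08, adjusted p = 0.000472). Cdc25a, a phosphatase of the G1 to S transition, rose by 0.75 (adjusted p = 0.0149) and the cyclin gene Ccnd3 by 0.59 (adjusted p = 0.00474). Of 13 MCM and licensing genes 0 were called, with 1 lower without anti-CD40 replicate 2.

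Among genes of nucleotide and polyamine synthesis 5 of 28 rose and 1 fell. Mthfd2, a mitochondrial folate enzyme, rose by 0.78 (adjusted p = 0.0139) and the spermidine synthase gene Srm by 0.44 (adjusted p = 0.00535). In the cholesterol list 4 of 18 fell and 1 rose. The sterol exporter gene Abcg1 fell by 0.76 (adjusted p = 0.00326), whereas the regulator Srebf2 rose by 0.43 (adjusted p = 0.00954). Slc7a1, a transporter of arginine and lysine, was at -2.93 and -2.36 and rose to 0.38 and 0.56 (3.19, SE 0.18, adjusted p = 0.000249), and Slc7a5, a leucine transporter, fell by 0.47 (adjusted p = 0.00527). These were the 2 calls among 8 amino acid transporters. Without anti-CD40 replicate 2 the nucleotide list had 3 higher members, and without the slide term it had 1 and the cholesterol list 0 calls.

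For the remaining lists the members that rose of those tested, and then the members that fell, were 4 of 21 and 1 for glycolysis, 4 of 19 and 2 for B cell fate and class switch, 4 of 19 and 2 for feedback phosphatases and SOCS, 3 of 25 and 0 for heat shock genes, 1 of 12 and 0 for MHC class II and 4 of 28 and 1 for interferon-induced genes. Over all genes tested 8.92% rose and 6.46% fell. Batf, a transcription factor needed for class switching, rose by 0.55 (adjusted p = 0.0123), and Dusp8, a MAP kinase phosphatase, by 0.77 (adjusted p = 0.00242). Ciita, the regulator of MHC class II, rose by 0.27 (adjusted p = 0.0285), and Bst2, an antiviral protein gene, fell by 0.61 (adjusted p = 0.0136). Without the slide term 1 gene, of the feedback list, was called in the 6 lists. Without anti-CD40 replicate 2 the higher members were 1 for interferon-induced genes, 1 for heat shock genes and 0 for MHC class II, and the lower members 4 for B cell fate and 0 for the feedback list.

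The effect was next compared with that of Pam2CSK4 in the presence of anti-CD86 and in otherwise unstimulated cells, by testing the difference between effects. Both differences share the 4 arrays with anti-CD40. Unstimulated cells, like anti-CD40 with Pam2CSK4, lay on slide 1 only, whereas Pam2CSK4 alone had 1 array on each slide. The difference from otherwise unstimulated cells therefore rests more on the slide term than the main comparison does. It was called for 2656 probes with that term and 363 without it. The effect differed from that with anti-CD86 for 1205 of 16783 genes (7.18%) and from that in otherwise unstimulated cells for 1344 (8.01%). For Tnf the effect with anti-CD40 minus that with anti-CD86 was 0.00 (95% interval -0.23 to 0.23), and minus that in otherwise unstimulated cells -0.20 (-0.45 to 0.04). The same differences were -0.10 (-0.30 to 0.10) and -0.11 (-0.33 to 0.11) for Il10, and -0.06 (-0.27 to 0.16) and 0.20 (-0.04 to 0.43) for Tlr2. None of these passed. Il12b rose more with anti-CD40 than with anti-CD86, by 0.49 (0.24 to 0.75, adjusted p = 0.0441), while its difference from otherwise unstimulated cells was 0.29 (adjusted p = 0.176). Its levels with anti-CD40 and Pam2CSK4 (1.39 and 1.55) lay below those with Pam2CSK4 alone (1.82 and 1.69). Saa3 had a difference of 1.03 from the effect with anti-CD86 (adjusted p = 0.0496). It was not well above background with anti-CD40 alone, so this value rests on dim signals. Its levels were -1.56 and -1.30 with both stimuli and -1.16 and -1.37 with Pam2CSK4 alone. Nfkbiz rose less than in otherwise unstimulated cells (-0.56, adjusted p = 0.033).

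**Figure D2:**
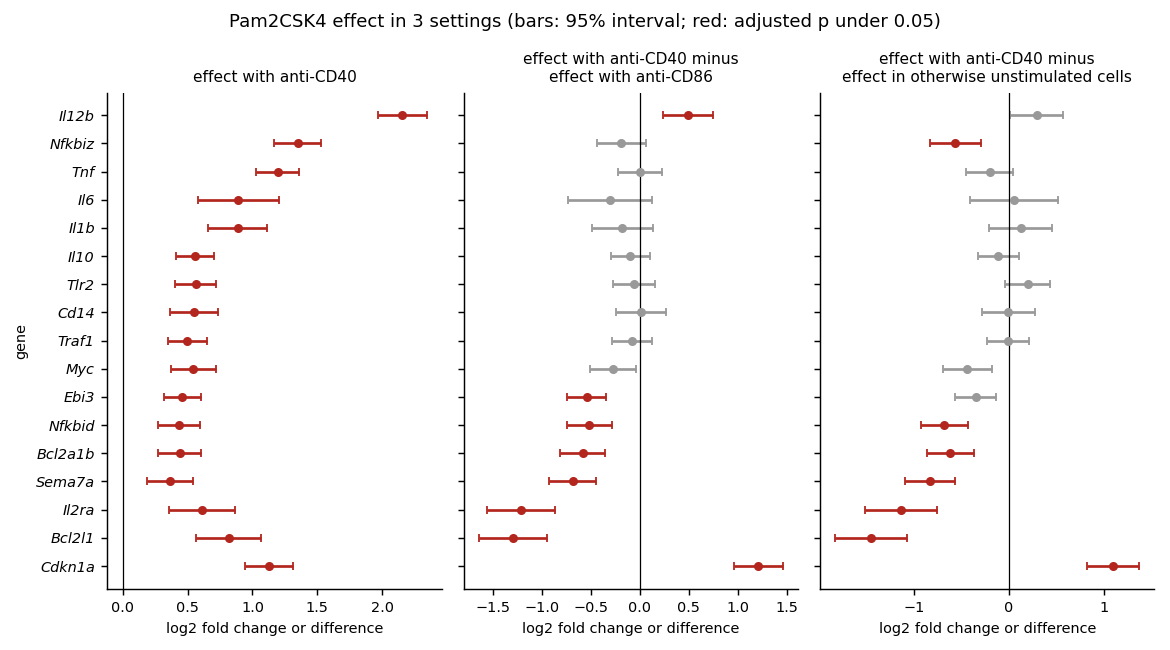
Log2 effect of Pam2CSK4 in the presence of anti-CD40 for 17 genes (left), and its difference from the effect with anti-CD86 (middle) and in otherwise unstimulated cells (right), with bars for 95% intervals and red for an adjusted p under 0.05. Bcl2l1 and Il2ra lie left of 0 in both difference panels, at -1.29 and -1.45 and at -1.21 and -1.13.

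Several genes that were high with anti-CD40 alone rose less when Pam2CSK4 was added to it. Bcl2l1 was at -0.35 and -0.48 in unstimulated cells, at 1.82 and 1.78 with Pam2CSK4, at 3.54 and 3.34 with anti-CD40 and at 4.39 and 4.22 with both. Its effect minus that with anti-CD86 was -1.29 (adjusted p = 0.0069), and minus that in otherwise unstimulated cells -1.45 (adjusted p = 0.00594), although the level with both stimuli was the highest of the 6 conditions. Dimmer probes of Bcl2l1 gave -1.67 (adjusted p = 0.0208) and -1.35 (adjusted p = 0.0673) against anti-CD86. Against otherwise unstimulated cells they gave -1.70 (adjusted p = 0.0243) and -0.32 (adjusted p = 0.629). Il2ra was at -1.85 and -1.82 unstimulated, at -0.15 and 0.03 with Pam2CSK4, at 1.89 and 1.72 with anti-CD40 and at 2.48 and 2.29 with both. Its differences were -1.21 (adjusted p = 0.00891) and -1.13 (adjusted p = 0.0128), and its dimmer probe gave -2.41 (adjusted p = 0.0344) and -0.97 (adjusted p = 0.292). In both genes these 4 conditions came in the same order. Bcl2a1b had differences of -0.58 (adjusted p = 0.0208) and -0.62 (adjusted p = 0.0217). Its dimmer probe gave -0.29 (adjusted p = 0.107) and -0.09 (adjusted p = 0.589), neither of which passed.

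Tlr1 was at 0.59 and 0.54 unstimulated, at 1.36 and 1.14 with Pam2CSK4, at 2.41 and 2.18 with anti-CD40 and at 2.34 and 2.49 with both, with differences of -0.63 (adjusted p = 0.0163) and -0.79 (adjusted p = 0.0108). Sema7a, a semaphorin gene named after its values were seen, had differences of -0.69 (adjusted p = 0.0159) and -0.83 (adjusted p = 0.0115), and Nfkbid of -0.51 (adjusted p = 0.0288) and -0.68 (adjusted p = 0.0159). Ebi3, a subunit of IL-27 also named afterwards, was at 4.61 and 4.26 with anti-CD40 and at 5.03 and 5.02 with both and rose less than with anti-CD86 (-0.54, adjusted p = 0.0179). Il21r was at 0.96 and 1.01 unstimulated and at 1.75 and 1.52 with Pam2CSK4, and its effects differed by -0.93 (adjusted p = 0.00335) and -1.25 (adjusted p = 0.00151). Cdkn1a went the other way, with a larger effect in the presence of anti-CD40 by 1.21 (adjusted p = 0.00265) and 1.10 (adjusted p = 0.0052).

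**Figure D3:**
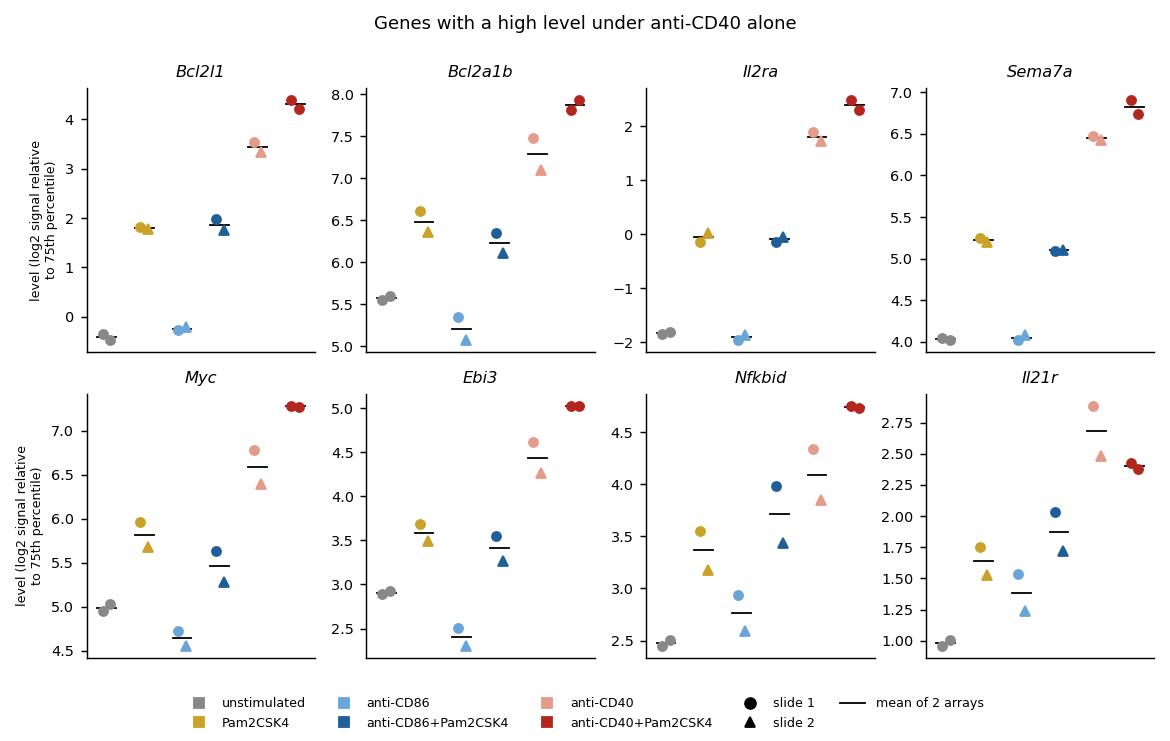
Level of 8 genes (log2 signal over the array's 75th percentile, y axis) on the 12 arrays by condition; circles are slide 1, triangles slide 2, and lines the mean of 2 arrays. In 7 panels the anti-CD40+Pam2CSK4 arrays are the highest, while for Il21r (2.42 and 2.38) they lie below both anti-CD40 arrays (2.89 and 2.48).

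The largest decreases were in genes expressed mainly by hepatocytes. Of 30 liver genes 29 were on the array and 24 were tested, of which 21 were lower and 1 higher, with a median of -3.66. Alb, which encodes albumin, was at 1.79 and 1.37 with anti-CD40 and at -2.47 and -3.47 with both stimuli (-4.71, SE 0.30, adjusted p = 0.000368), where it was well above background on 1 of the 2 arrays, against 1.25 to 2.20 on the 10 other arrays. Ahsg, which encodes fetuin-A, was at 1.63 and 1.05 and fell to -1.90 and -1.92 (-3.44, SE 0.10, adjusted p = 1.31e-05). Mup1, of the major urinary protein genes whose near-identical copies share signal, was at 3.28 and 2.99 and fell to -1.30 and -1.38 (-4.58, SE 0.06, adjusted p = 7.87e-07). None of these 3 overlapped between the groups, but the share of all genes with this trait was not counted. Mup2 fell by 4.66 (adjusted p = 2.94e-06), the fatty acid binding protein gene Fabp1 by 4.08 (adjusted p = 3.08e-05) and Serpina1d, an alpha-1-antitrypsin gene, by 3.90 (adjusted p = 1.62e-05). The same direction held for Mup-ps11, Mup-ps15, Mup-ps2, Mup4 and Mup3, which fell by 3.78 to 4.39.

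Of the 24 tested members 8 were well above background on neither array with both stimuli, so only a bound can be given there and the median rests on dim signals. The lipoprotein gene Apoa2 was at least 15.9-fold lower (adjusted p = 0.000339), the retinol carrier gene Rbp4 at least 11.9-fold (adjusted p = 4.94e-05) and the fibrinogen gene Fgg at least 11.6-fold (adjusted p = 0.000189). Mup-ps14 (at least 16.6-fold), Mup20 (10.2-fold) and Pzp (9.58-fold), not on the list, were lower in the same way. Apoh was at -1.22 and -1.27 with anti-CD40 and Serpina3k at -1.97 and -2.27, and both were called lower, as was Cyp2e1. Fgb and Ambp fell by 4.09 and 3.87, each well above background on 1 of the 2 arrays with both stimuli, and Pck1, Apoc1, Apoa1, Trf and Tat by 0.80 to 2.13.

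Hp, which myeloid cells also make, was at 4.25 and 3.81 and then at 3.80 and 3.88 (-0.40, adjusted p = 0.0105). Hpx (-1.02, adjusted p = 0.168) and Cyp3a11 (-1.41, adjusted p = 0.105) did not pass, and Ass1, an enzyme of arginine synthesis in many tissues, rose by 0.32 (adjusted p = 0.0329). Apob, Apoc3, Ttr, Fga and Cps1 did not pass the filter on dim probes, Serpina1a was measured through a probe now assigned to Serpina1d, and no probe was matched to Serpina1b. The summed level of the 29 genes, each as a ratio to the 75th percentile, was 20.9 and 21.4 on the arrays with both stimuli and 50.3 to 104 on the other 10, so the groups did not overlap. Without the slide term 18 members were called lower and without anti-CD40 replicate 2 21. The part of the liver transcripts in the other differences was not tested.

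**Figure D4:**
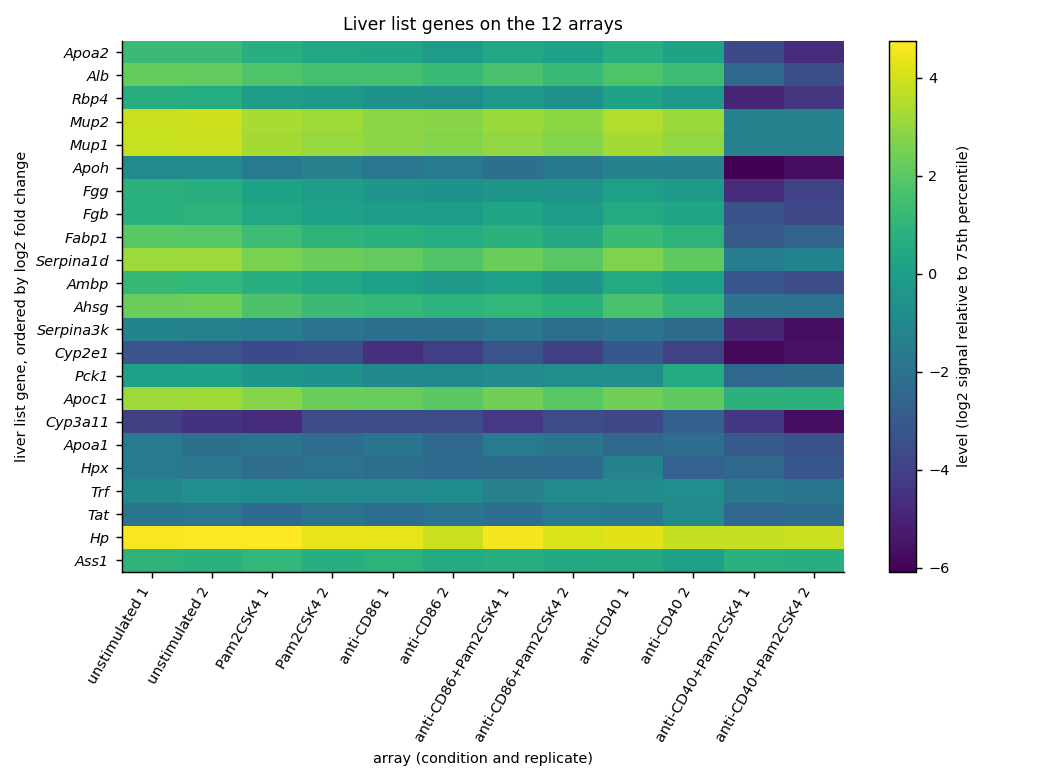
Level (log2 signal over the array's 75th percentile, colour) of 23 of the 24 tested liver genes (rows) on the 12 arrays (columns). The 2 anti-CD40+Pam2CSK4 columns are low for most genes, with Alb at -2.47 and -3.47 against 1.25 to 2.20 on the other arrays.

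Markers of other blood cells were present on all arrays. The summed level of 25 myeloid genes was 676 and 568 with anti-CD40 and 708 and 760 with both stimuli, that of 14 T cell genes 47.6 and 37.1 and 49.6 and 49.6, and that of 11 NK cell genes 23 and 18.6 and 24 and 23.3. Of 24 tested myeloid genes 3 rose and 5 fell. Clec4e, a C-type lectin receptor gene, was at 2.88 and 2.53 and rose to 3.75 and 3.64 (0.85, SE 0.07, adjusted p = 0.000907). Siglech fell by 1.03 (adjusted p = 0.0113), Ngp by 0.47 (adjusted p = 0.0131) and Itgam by 0.62 (adjusted p = 0.00738), whose dimmer probe gave 0.05. Of the T cell genes 1 rose, of the NK cell genes 2, of 8 red cell and platelet genes 1, of 5 exocrine pancreas genes 1, of 3 kidney genes 0, of 7 skeletal muscle genes 2 and of 10 B cell genes 1, and 0 of these fell. The shares over all genes tested were 8.92% higher and 6.46% lower. Without anti-CD40 replicate 2 the myeloid list had 1 higher members. The part of these cells in the rise of the cytokine, Saa and receptor genes was not tested.

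Further genes stood apart on the arrays with both stimuli. Among the genes eligible for naming, 14 lay more than 1 log2 unit above every one of the 10 other arrays and 20 more than 1 below. Of the 20, 12 were members of the liver list or further Mup genes, and 8 were other genes. Rab5c, a GTPase of early endosomes, was at 3.17 and 2.76 with anti-CD40 and at 5.60 and 5.59 with both (2.48, SE 0.06, adjusted p = 6.82e-06). Ube2s, a ubiquitin conjugating enzyme of mitosis, was at 3.39 and 2.92 and rose to 5.40 and 5.51 (2.11, SE 0.06, adjusted p = 1.58e-05). With anti-CD86, Rab5c was at 3.31 and 3.01 without and 2.69 and 2.44 with Pam2CSK4, and the effects differed by 3.08 (adjusted p = 2.83e-05) for Rab5c and 3.01 (adjusted p = 2.83e-05) for Ube2s.

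Med1, a Mediator subunit gene, was at -1.07 and -1.12 and rose to 2.02 and 1.95 (3.03, SE 0.07, adjusted p = 3.35e-06). It lay 0.93 above the other arrays, less than 1 log2 unit. With anti-CD86, Med1 was at -1.67 and -1.66 without and 1.02 and 0.87 with Pam2CSK4, and the effects differed by 0.43 (adjusted p = 0.0433). Plagl2, a zinc finger gene, rose by 2.28 (adjusted p = 8.81e-06). With anti-CD86 it was at 1.43 and 1.30 without and 2.93 and 2.76 with Pam2CSK4, a difference between effects of 0.79 (adjusted p = 0.00594). Chmp4b, of the ESCRT membrane scission machinery, rose by 1.97 (adjusted p = 7.84e-06), whereas its dimmer probe gave 0.56. Lsm14b and Aph1a rose by 2.01 and 1.83, and their dimmer probes gave -0.10 and 0.67, neither of which passed. The other genes with the highest log2 fold changes were Dmbx1 (3.36, from -2.56 and -1.27 to 1.40 and 0.38), Tm4sf4 (3.12) and Olfr1196 (2.25). These 3 did not lie above all other arrays. Dmbx1 was called in 13 of 18 alternatives, Tm4sf4 in 15 of 19 and Olfr1196 in 9 of 19. Further probes of Dmbx1 and Olfr1196 were well above background on 0 of the 4 arrays compared. With anti-CD86, Dmbx1 was at -3.67 and -3.32 without and -0.80 and 0.82 with Pam2CSK4, and the difference between the effects was -0.15 (adjusted p = 0.892) for Dmbx1, 0.57 (adjusted p = 0.2) for Tm4sf4 and -0.08 (adjusted p = 0.948) for Olfr1196. Chtf8 rose by 1.72 (adjusted p = 0.00785).

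Hmox1, which encodes heme oxygenase, was at 3.60 and 3.11 and fell to 1.02 and 1.12 (-2.45, SE 0.08, adjusted p = 1.98e-05). The zinc finger gene Zfp719 fell from 0.18 and 0.01 to -2.50 and -2.14 (-2.47, adjusted p = 0.000162). The genes that follow were named after their values were seen, apart from Gar1 and Ncl. Prmt1, an arginine methyltransferase gene, and Ly9, a SLAM family receptor gene, fell by 1.67 (adjusted p = 4.01e-05) and 1.67 (adjusted p = 5.87e-05). Gar1, of the snoRNPs that modify ribosomal RNA, fell from 2.75 and 2.60 to 0.99 and 1.01 (-1.71, adjusted p = 0.000259).

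Probes of the same gene disagreed in places. Ncl, which encodes nucleolin, fell from 7.71 and 7.46 to 6.44 and 6.40 (-1.29, adjusted p = 5.84e-05) with a spot saturated on at least 1 array, and its dimmer probes gave -1.36, 0.31 and -0.09 from brighter to dimmer. Kdm5c, a histone demethylase gene, fell by 1.36 (adjusted p = 5.05e-05), whereas its dimmer probe gave 0.21. Esam1 was at 0.06 and -0.46 with anti-CD40 alone, at -2.28 and -2.19 with both and at -3.16 to -2.69 in the other 4 conditions (-2.15, adjusted p = 0.00148). Of the 133 named genes that were called, all 133 had the same sign in every alternative that tested them, 18 or 19 each. The alternatives refit the same arrays on which these genes were called, so this was largely fixed in advance. Without the slide term 62 of the 133 were also called, with the same-slide pairs averaged 50, and on slide 1 alone 46. A cell preparation that the 2 arrays with both stimuli may share cannot be told apart from the stimulus.

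**Figure D5:**
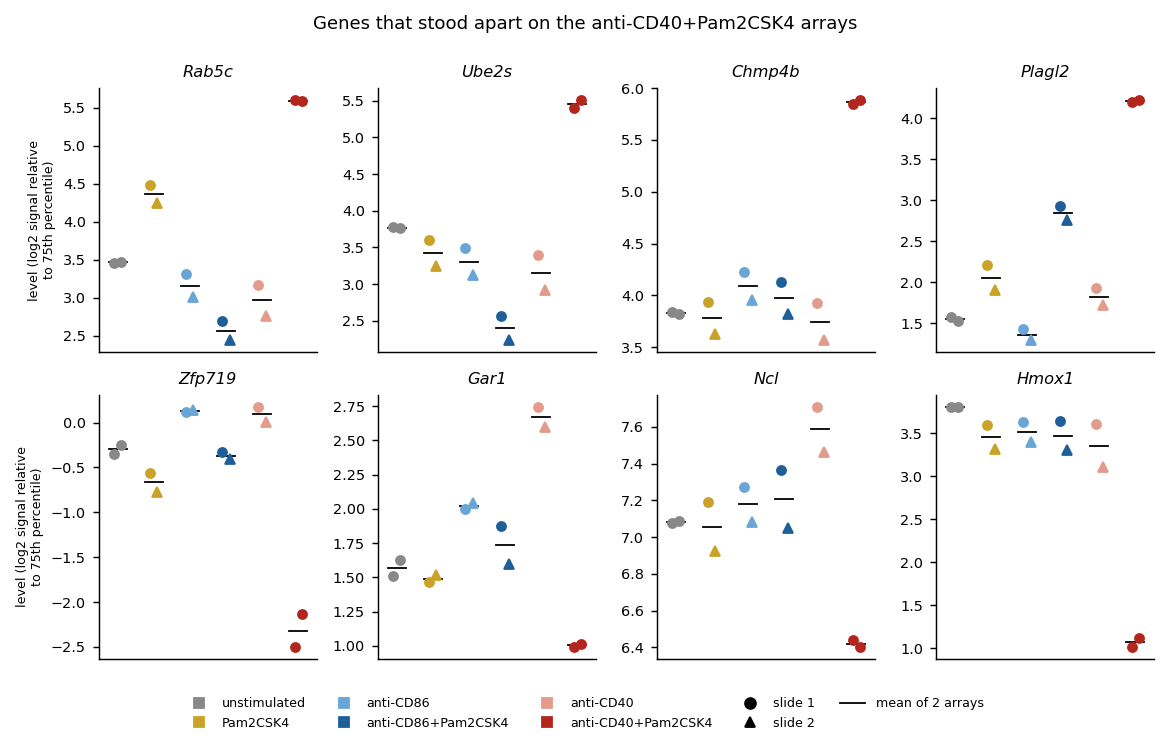
Level of 8 genes (log2 signal over the array's 75th percentile, y axis) on the 12 arrays by condition; circles are slide 1, triangles slide 2, and lines the mean of 2 arrays. Rab5c, Ube2s, Chmp4b and Plagl2 lie above all other arrays with anti-CD40+Pam2CSK4, and Zfp719, Gar1, Ncl and Hmox1 below them.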

How the data were processed

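Total RNA was labelled with Cy3 and hybridised to Agilent mouse arrays, 1 array per sample. The authors extracted the scans with Agilent Feature Extraction, and the deposited scanner files hold a processed signal intensity per spot, corrected for background within the array. A second deposited file holds log2 values from the authors, which here equalled the log2 processed signal minus a constant per array; how that constant was set is not given in the sources used here. Control and outlier spots were left out, spots of a probe were averaged, and log2 signals were taken relative to the 75th percentile of each array. The filter kept 31667 of 61307 probes, those whose 2 arrays in at least 1 condition were both flagged well above background by the scanner software, and the 31599 with no missing value were tested. The fit used limma 3.58.1 in R 4.3.3 over all 12 arrays, with terms for condition and slide (18074 probes differed between slides), eBayes, and Benjamini-Hochberg adjustment over all probes. It was tested on simulated data with independent errors drawn from the same model. That test cannot show how a likeness of arrays on the same slide affects the calls. The brightest tested probe gave a gene's value.

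The named genes were the 12 highest and 12 lowest called genes that on all 4 arrays were well above background without saturation, did not overlap between groups and kept their sign on slide 1, up to 6 bounds per direction, up to 4 called genes per list, a set of defining genes, every liver gene, and the 5 highest and 5 lowest of each difference between effects. A few genes that these rules name are not reported here. The members and lists were chosen with earlier results of these data known. The study's methods describe the anti-CD86 and Pam2CSK4 arrays, and the anti-CD40 groups are known from the labels. Promoters came from RefSeq (GRCm38.p6). Alternatives covered slide and replicate number, scaling, background correction, filters, the deposited table, an unmoderated one way test and leaving out each array. The number of arrays limits the precision. Figures were drawn with matplotlib 3.10.9, and tables were made with pandas 2.3.3 and numpy 2.4.6 in Python 3.11.15.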

Additional observations from a re-analysis of the deposited data

Results flagged for a closer look

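The effect of Pam2CSK4 in the presence of anti-CD40 differed from its effect with anti-CD86 for 2342 probes and from its effect in otherwise unstimulated cells for 2656, each by a test of the difference itself. In the values that follow, the log2 difference from the effect with anti-CD86 is given first and that from otherwise unstimulated cells second. Each value is that of the brightest tested probe. For some genes, Bcl2l1, Bcl2a1b and Il2ra among them, a dimmer probe did not pass both.

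Among genes of survival, receptors and signaling that were high with anti-CD40 alone, the differences were -0.51 and -0.68 for Nfkbid, -1.21 and -1.13 for Il2ra, -0.93 and -1.25 for Il21r, -1.29 and -1.45 for Bcl2l1, -0.58 and -0.62 for Bcl2a1b, -0.70 and -0.57 for Bcl2a1a, -0.63 and -0.79 for Tlr1 and -0.69 and -0.83 for Sema7a. Among liver genes they were -4.80 and -4.13 for Mup2, -4.63 and -4.02 for Mup1, -4.52 and -3.85 for Mup-ps11, -4.28 and -3.67 for Mup-ps15, -4.25 and -3.60 for Mup-ps2, -3.41 and -2.81 for Ahsg and -4.76 and -4.35 for Alb. The genes with a larger effect in the presence of anti-CD40 had differences of 1.19 and 2.80 for Slc7a1, 0.43 and 2.68 for Med1, 3.08 and 1.44 for Rab5c, 3.01 and 2.26 for Ube2s, 1.64 and 2.20 for Lsm14b, 2.08 and 1.86 for Chmp4b, 2.20 and 2.13 for Aph1a, 1.21 and 1.10 for Cdkn1a and 1.93 and 1.77 for Chtf8. Further genes with a lower value had -2.40 and -2.27 for Hmox1, -1.42 and -1.67 for Gar1 and -1.32 and -1.40 for Ncl. The difference from anti-CD86 alone passed for Il12b (0.49), Saa3 (1.03) and Ebi3 (-0.54), and that from otherwise unstimulated cells alone for Tm4sf4 (2.77) and Nfkbiz (-0.56). The value of Saa3 rests on signals that were not well above background with anti-CD40 alone.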

How the results depend on the processing

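The counts of probes called are given in the order of the comparison of anti-CD40 with and without Pam2CSK4, its difference from anti-CD86, and its difference from otherwise unstimulated cells (4727, 2342 and 2656 as reported). They were 916, 261 and 363 without the slide term, 947, 400 and 418 with median normalization, 1031, 240 and 263 without the filter on dim probes, 939, 337 and 473 with the unmoderated one way test, and 643, 197 and 154 with the same-slide pairs averaged, which was added after the data were seen. With sample number as a replicate block the counts were 2038, 503 and 1388 in place of the slide term and 2830, 1277 and 597 beside it. The correlation of deviations from the group mean was 0.03 between the groups compared. The anti-CD40 arrays lay on different slides and those with both stimuli on slide 1. This value therefore cannot show whether the numbers pair the arrays. The comparison itself gave 591 on slide 1 alone, 128 with only its 4 arrays, and 0 with these and the slide term, where limma had 1 residual degree of freedom and 6093 probes had an unadjusted p under 0.05. Leaving out 1 array gave 1920 to 3269, 485 to 2063 and 393 to 2228, with the lowest counts without anti-CD40+Pam2CSK4 replicate 2, anti-CD86+Pam2CSK4 replicate 1 and Pam2CSK4 replicate 1. For the comparison itself, the counts without anti-CD40+Pam2CSK4 replicate 1 and anti-CD40 replicate 1 were 2277 and 2896. Without anti-CD40 replicate 2 the survival list had 2 higher members and ribosome biogenesis 7.

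The share of higher probes was 57.8% for the comparison itself, but 44.9% without the slide term, 40.6% on slide 1 alone, 42.6% without the filter and 37.5% with the pairs averaged. It was 56.4% for the difference from anti-CD86, but 46.0% with median normalization and 45.3% with the percentile over probes detected on all arrays. For the difference from otherwise unstimulated cells it was 58.5% and 42.6% with median normalization. Over the named genes, 3277 of 4451 values stayed on their side of the threshold, 1158 lost the call, 16 gained it and 0 called values turned sign. Of the 3277, 89 changed sign without being called in either fit. The alternatives refit the same arrays, so a kept sign is no further support. Of the 133 named genes that were called, 62 were also called without the slide term, 61 with median normalization, 50 with the pairs averaged and 46 on slide 1 alone. Among the 55 named genes that were called with at least a 2-fold change, 51 were also called without the slide term, 54 with median normalization, 47 with the pairs averaged and 43 on slide 1 alone. The cause of these shifts was not tested. Probes near background and 2 arrays a group limit what small changes can show.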
